A study of Mus musculus with 12 samples.

Results

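The G2 and mitosis genes described here are 40 named mouse genes that act from the end of DNA replication to cell division, among them the mitotic cyclins, their kinases, the spindle checkpoint, the kinetochore and the cytokinesis machinery. They were chosen by symbol, matched to Ensembl identifiers through GENCODE release M21, and read from the deposited table of raw gene counts. All 40 were found among its 55471 gene rows, and all 40 passed the filter on low counts that left 17197 genes for testing. Their counts per library ran from 925 for Cdc25c to 154294 for Top2a. The members lay on 16 chromosomes, and chromosome 2 held 7 of them.

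RNA sequencing was done on 12 lines of Ba/F3, a mouse pro-B cell line that depends on interleukin-3 (IL-3). Control lines, named MSCV after their retroviral vector, held that vector empty and received 0.5 ng/ml murine IL-3. The other lines had been transformed by BCR-ABL1 or by SFPQ-ABL1, each joining a partner protein to the tyrosine kinase ABL1, and received no IL-3. Each group had 4 lines, which the series' design text calls biologically independent, and all cells were growing exponentially when they were collected. IL-3 and the fusions cannot be told apart in either comparison with MSCV, and both of those comparisons use the same MSCV lines. The comparison of the fusions is free of the IL-3 difference.

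Gene totals ran from 59355018 to 80616227 counts per library, and 1 CPM, a level scaled to library size with TMM factors, stood for 61.2 to 82.2 counts. Of 17 markers fixed for pro-B cells, 11 were under 1 CPM in every group, including Pax5 and Rag1, and Il7r was at 0 in every line, while Cd79a averaged 93.4, 42.5 and 58.1 CPM in the MSCV, BCR-ABL1 and SFPQ-ABL1 lines. The summed level of the 17 markers was 2351 to 4527 CPM in MSCV, 1416 to 2567 in BCR-ABL1 and 1233 to 2591 in SFPQ-ABL1 lines. Nearly all of that sum came from Ptprc, Cd79a, Cd79b and the IL-3 receptor chain genes Il3ra, Csf2rb and Csf2rb2. Summed granulocyte and monocyte markers (7 genes) were 444 to 1123, 215 to 382 and 549 to 817 CPM in the same order, and 5 fibroblast markers summed to under 1 CPM in each line. Markers of T and NK cells, mast cells and basophils, and erythroid cells and megakaryocytes summed to 9.7 to 29.2, 1344 to 1632 and 1175 to 1919 CPM in MSCV lines, 4.69 to 11.2, 1334 to 1578 and 831 to 1640 in BCR-ABL1 lines, and 6.86 to 22.2, 797 to 1358 and 801 to 1822 in SFPQ-ABL1 lines. Of these, 5 of 7 T and NK cell markers were under 1 CPM in every group. So were 3 of 5 mast cell and basophil markers (Mcpt8, Fcer1a and Prss34), whose list sum came from Gata2 and Cpa3. The part of these markers in the results was not tested. Both fusion groups held a line that stood apart on exon 9 of Sfpq and Abl1, in CPM of the gene total with no TMM factor. SFPQ-ABL1 line 2 had 4.39 on the Sfpq exon against 14.5 to 20.02 in its group, and 4.36 on the Abl1 exon against 17.8 to 26.8. BCR-ABL1 line 4 had 20.9 on the Abl1 exon against 9.23 to 11.8 in its group, and 3.60 on the Sfpq exon against 1.53 to 1.98.

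As background, a cell enters mitosis when cyclin B bound to CDK1 is freed of its inhibitory phosphates by CDC25 phosphatases. Polo-like and Aurora kinases then build the spindle, kinetochores tie chromosomes to its microtubules, and the checkpoint proteins MAD2, BUB1 and BUBR1 hold back the anaphase-promoting complex until every chromosome is attached. CDC20 then activates that complex, which marks cyclin B for destruction. Most of these genes are transcribed together late in the cell cycle, through the CCAAT box, which NF-Y binds, and the cell cycle genes homology region (CHR), which the MuvB complex binds with B-MYB or FOXM1.

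The members' promoters were compared with all mouse promoters because the set is known for sharing these elements. RefSeq windows of 250 bases before to 50 after each annotated start (build GRCm38.p6) were found for 34 of the 40 genes, in 38 windows. None was matched for Tpx2, Aurkb, Cdc25c, Kif20a, Ccna2 and Foxm1. The 150 bases before the start are shown for Ccnb2, Cdc20, Cenpa and Cenpf, which had the lowest adjusted p among the members that fell with BCR-ABL1, for Plk4, the member that rose, and for Cdk1, which did not pass the test. Each reads 5′ to 3′ on the gene's strand. Capitals mark CCAAT or its reverse complement ATTGG, and the CHR as TTTGAA or TTCGAA on either strand.
Ccnb2 (chr9:70421555-70421704, minus strand): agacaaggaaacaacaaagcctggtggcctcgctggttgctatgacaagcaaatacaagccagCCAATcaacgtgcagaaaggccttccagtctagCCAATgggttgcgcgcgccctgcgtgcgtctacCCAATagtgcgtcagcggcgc
Cdc20 (chr4:118437344-118437493, minus strand): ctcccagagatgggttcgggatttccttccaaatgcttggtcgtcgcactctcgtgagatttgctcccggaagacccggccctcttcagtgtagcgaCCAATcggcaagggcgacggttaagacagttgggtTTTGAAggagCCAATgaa
Cenpa (chr5:30666736-30666885, plus strand): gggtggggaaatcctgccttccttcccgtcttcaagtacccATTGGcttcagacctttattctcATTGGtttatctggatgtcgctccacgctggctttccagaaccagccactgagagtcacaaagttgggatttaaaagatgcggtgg
Cenpf (chr1:189688087-189688236, minus strand): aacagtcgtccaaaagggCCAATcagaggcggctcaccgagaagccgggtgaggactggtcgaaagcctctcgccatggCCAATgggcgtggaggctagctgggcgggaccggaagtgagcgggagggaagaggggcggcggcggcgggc
Cdk1 (chr10:69352913-69353062, minus strand): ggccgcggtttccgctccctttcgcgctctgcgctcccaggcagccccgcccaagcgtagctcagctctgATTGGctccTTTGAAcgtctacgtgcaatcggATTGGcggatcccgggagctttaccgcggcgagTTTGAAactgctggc
Plk4 (chr3:40799801-40799950, plus strand): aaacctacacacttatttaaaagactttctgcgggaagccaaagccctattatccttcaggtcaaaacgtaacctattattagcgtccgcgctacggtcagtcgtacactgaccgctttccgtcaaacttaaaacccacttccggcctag

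Ccnb2 carried 3 CCAAT boxes, whose first bases lay at -87, -54 and -21 from the start, each 33 bases from the next. Cdc20 had CCAAT at -53 and -8 with TTTGAA at -18 between them. In Cenpa and Cenpf the CHR match lay just after the start, at base 17 and base 3, outside the letters printed. Ccnb2 also had a CHR match at base 5, counted from 1 at the start. No match to any of these motifs was found in the Plk4 window. Its printed bases end at 40799950 and the GENCODE gene starts at 40800019, so the window did not reach that start. The first bases after the start were found in a GENCODE transcript for 24 of the 38 windows. Of the genes shown, those of Ccnb2 and Plk4 were not.

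CCAAT was found in 30 of the 38 member windows (78.9%), against 37.4% of all 32851 mouse windows, and at least 2 copies in 55.3% against 11.7%. A CHR in either spelling was found in 73.7% of member windows and in 19.2% of all windows. Both elements together were found in 65.8% of member windows and 7.52% of all. Of 68 CCAAT matches, 52 began within the 150 bases before the start, and of 39 CHR matches, 26 began from 50 bases before to 50 after it. Overlapping windows of the same gene (Bub3, Ect2, Gtse1 and Prc1) shared motifs, which were counted once in each window. The 9 windows of members that fell with BCR-ABL1 held CCAAT in 66.7% and a CHR in 88.9%, and the 29 windows of the other members in 82.8% and 69.0%. Cdc25c and Kif20a, which also fell, had no window. The Kif2c window, which held no CCAAT, did not reach the start of the GENCODE gene. Among the other members, the windows of Plk4, Mad2l1 and Kif4 did not reach it either. All motif matches are letter matches and were not tested as binding sites.

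**Figure D1:**
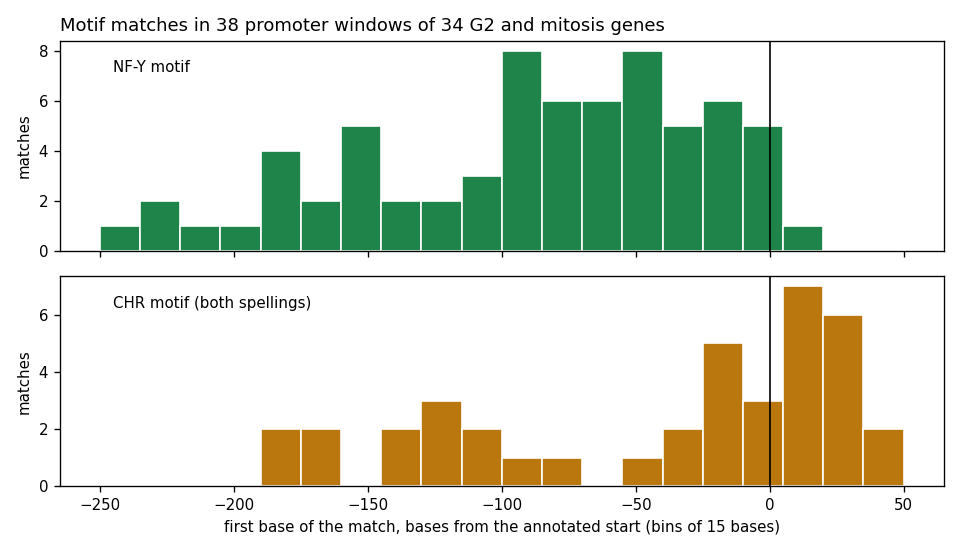
Number of motif matches (y axis) by the distance of their first base from the annotated start in bases (x axis, bins of 15) over 38 promoter windows of 34 genes, with the CCAAT box bound by NF-Y above and the CHR below. CCAAT matches were mostly upstream (52 of 68 within 150 bases before the start), and CHR matches gathered around the start (26 of 39 within 50 bases of it). A motif shared by overlapping windows of a gene is counted in each.

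Levels differed widely within the set. Per kilobase of exon, Top2a, which unlinks sister DNA molecules, was highest in every group, at 179 ± 26.5, 192 ± 30.7 and 173 ± 34.6 CPM per kb in the MSCV, BCR-ABL1 and SFPQ-ABL1 lines (SD, n = 4 each). Ccnb2 followed with 151 ± 17.4, 94.7 ± 14.6 and 122 ± 6.12 CPM per kb. Cdc25c was lowest in every group, at 4.79 ± 0.741, 3.26 ± 0.306 and 4.35 ± 0.487 CPM per kb, with Cenpf next above it at 8.04 ± 1.67, 5.15 ± 0.222 and 7.75 ± 0.405. Summed over the 40 genes, the level was 7558 ± 1094 CPM in the MSCV lines, 7341 ± 267 in the BCR-ABL1 lines and 7409 ± 408 in the SFPQ-ABL1 lines (SD, n = 4 each), and these ranges overlapped. Top2a and Mki67 take a large share of that sum.

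With BCR-ABL1 a minority of the members were called lower than in MSCV, led by centromere, cyclin and CDC20 genes, and 1 was called higher. Of the 40 genes, 11 fell and 1 rose in edgeR's two-sided quasi-likelihood test (Benjamini-Hochberg adjusted p under 0.05 over all genes tested). Over all genes, 16.3% fell, 15.8% rose and 32.1% changed in either direction, while 27.5%, 2.5% and 30.0% of the members did. The share of members that changed was thus near that of all genes, and the changes leaned to one side. Their median log2 fold change was -0.11 (range -0.67 to 0.58), with 27 of 40 negative, and that of all genes was -0.0081, with 50.8% negative. The members' median was -0.055 without MSCV line 4 and -0.068 without MSCV line 3, the lines in which these genes were highest, and -0.164 without MSCV line 1. Fewer cells in G2 or mitosis and less of these RNAs per cell cannot be told apart in bulk RNA.

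**Figure D2:**
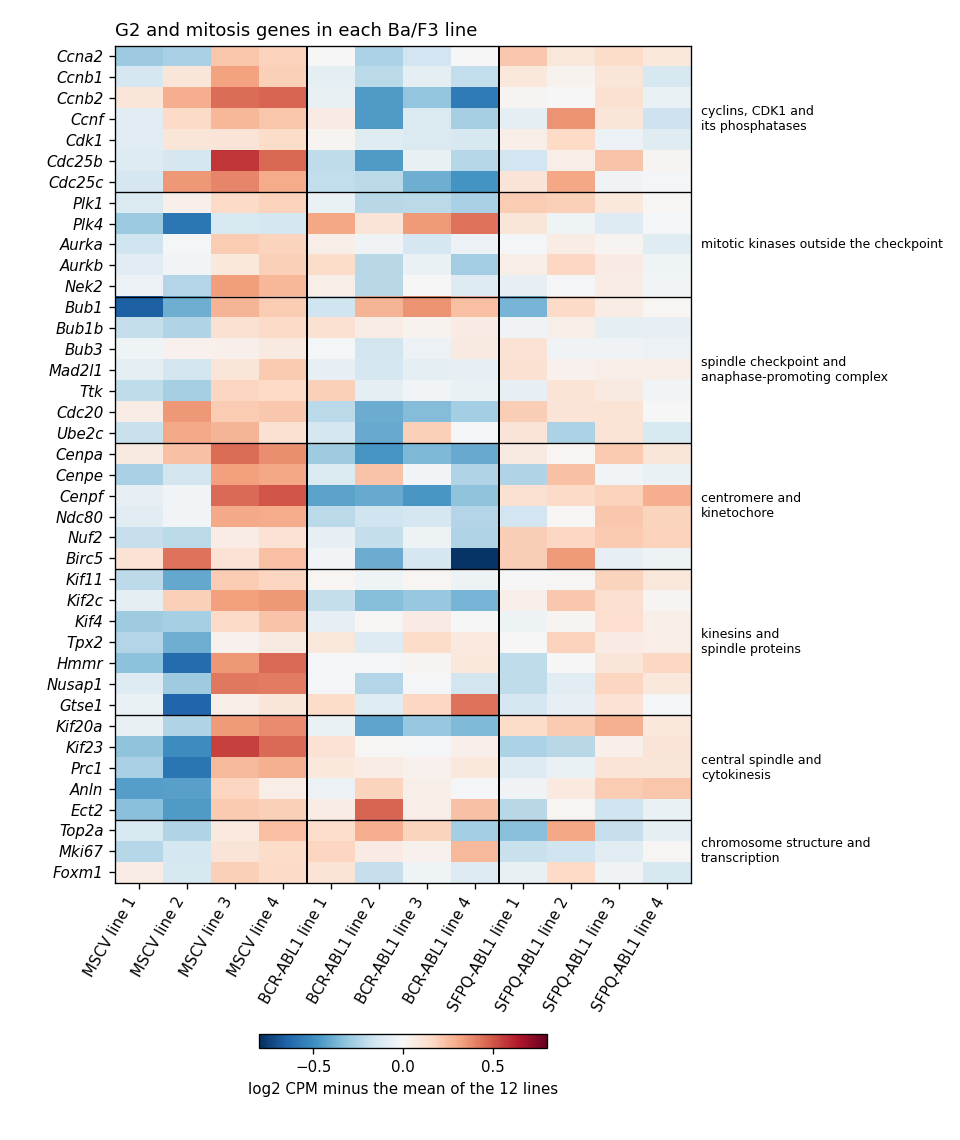
Each cell gives log2 CPM minus the mean of the 12 lines (colour scale, red above and blue below) for a gene (rows, grouped by role) in a line (columns). The BCR-ABL1 lines are blue for Ccnb2, Cdc20, Cenpa and Cenpf, and MSCV lines 3 and 4 are red for nearly all genes.

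Among the cyclins, CDK1 and its phosphatases, 3 of 7 fell with BCR-ABL1, against 16.3% of all genes. Ccnb2, a B-type cyclin that activates CDK1, was at 196, 224, 249.5 and 253 CPM in MSCV lines 1 to 4, at 175, 134, 147 and 124 in BCR-ABL1 lines 1 to 4, and at 186, 184, 199 and 177 in SFPQ-ABL1 lines 1 to 4. The BCR-ABL1 lines were the lowest of the 12 and overlapped neither other group. Ccnb2 was 1.59-fold lower with BCR-ABL1 than in MSCV (log2 fold change -0.67, SE 0.12, adjusted p = 0.000877) and 1.29-fold higher with SFPQ-ABL1 than with BCR-ABL1 (log2 0.36, SE 0.11, adjusted p = 0.0335). Between SFPQ-ABL1 and MSCV it did not pass the test (log2 -0.31, adjusted p = 0.174). The difference between the fusions was lost when any 1 of BCR-ABL1 lines 2, 3 and 4 or of SFPQ-ABL1 lines 1 and 3 was left out (adjusted p up to 0.0959).

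Cdc25c, a phosphatase that activates CDK1 at the entry to mitosis, was at 18.2, 25.4, 26.1 and 24.5 CPM in the MSCV lines, 17.4, 17.2, 15.2 and 14.3 in the BCR-ABL1 lines and 21.5, 24.8, 19.6 and 19.8 in the SFPQ-ABL1 lines. All BCR-ABL1 lines lay below all others, although MSCV line 1 came close to them. The fall against MSCV was 1.47-fold (log2 -0.56, SE 0.13, adjusted p = 0.00532). SFPQ-ABL1 was 1.33-fold above BCR-ABL1 (log2 0.42, SE 0.13, adjusted p = 0.0296), a difference lost on leaving out 1 of BCR-ABL1 lines 3 and 4 or of SFPQ-ABL1 lines 1 and 2.

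Cdc25b, a phosphatase of the same family, was at 89.4, 87.4, 142 and 132 CPM in the MSCV lines, 83.4, 69.98, 92.1 and 82.0 in the BCR-ABL1 lines and 86.2, 99.3, 112 and 97.2 in the SFPQ-ABL1 lines. Here the groups overlapped, and MSCV lines 3 and 4 stood above the rest. Its fall with BCR-ABL1 (log2 -0.46, SE 0.16, adjusted p = 0.0397) was lost on leaving out 1 of MSCV lines 3 and 4 or of BCR-ABL1 lines 1, 2 and 4 (adjusted p up to 0.126). Ccnb1, the other B-type cyclin, was at 82.9 to 114 CPM in MSCV and 78.5 to 86.8 in BCR-ABL1 lines and missed the threshold (log2 -0.26, adjusted p = 0.0538). Cdk1 (log2 -0.15, adjusted p = 0.204), Ccna2 (log2 -0.08, adjusted p = 0.651) and Ccnf, an F-box protein of the cyclin family (log2 -0.32, adjusted p = 0.0809), did not pass either. All 7 genes of this role had a negative log2 fold change with BCR-ABL1 (median -0.32), against 50.8% of all genes. All 7 had a positive one between SFPQ-ABL1 and BCR-ABL1 (median 0.25), against 50.7% of all genes.

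The mitotic kinases did not move as a group. Plk4, which controls centriole duplication, was at 68.7, 56.6, 77.7 and 76.4 CPM in the MSCV lines, 105, 90.7, 107 and 114 in the BCR-ABL1 lines and 90.5, 82.4, 78.6 and 83.5 in the SFPQ-ABL1 lines. It was the only one of the 40 genes called higher with BCR-ABL1, 1.49-fold above MSCV with no overlap of lines (log2 0.58, SE 0.11, adjusted p = 0.00141). The SFPQ-ABL1 lines lay between the other groups. They were 1.24-fold below BCR-ABL1 (log2 -0.31, SE 0.11, adjusted p = 0.0453), a call that held in 3 of the 12 fits that left out a line, those lacking line 2 of BCR-ABL1 or line 2 or 3 of MSCV. It was also not called with no normalization factors, with no filter on low counts or with limma-voom.

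Plk1, which acts at centrosomes, kinetochores and the midzone, was at 98.7, 110.0, 119 and 121 CPM in the MSCV lines, 103, 91.6, 91.8 and 89.2 in the BCR-ABL1 lines and 123, 122, 113 and 108 in the SFPQ-ABL1 lines. MSCV line 1 lay among the BCR-ABL1 lines, while every SFPQ-ABL1 line was above them. Its fall with BCR-ABL1 was small (log2 -0.26, SE 0.09, adjusted p = 0.0375) and was lost on leaving out 1 of MSCV lines 3 and 4 or of BCR-ABL1 lines 2, 3 and 4. SFPQ-ABL1 was 1.24-fold above BCR-ABL1 (log2 0.31, SE 0.09, adjusted p = 0.0193), which was lost on leaving out BCR-ABL1 line 3, BCR-ABL1 line 4 or SFPQ-ABL1 line 1. Aurka, Aurkb and Nek2, kinases of the spindle pole, the chromosomal passenger complex and the centrosome, had log2 fold changes of -0.10, -0.14 and -0.16 with BCR-ABL1 and were not called (adjusted p from 0.314 to 0.43).

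Among 7 genes of the spindle checkpoint and the anaphase-promoting complex, Cdc20 alone was called. Cdc20, the activator that the checkpoint holds back, was at 138, 168, 152 and 153 CPM in the MSCV lines, 114, 100.4, 104 and 109 in the BCR-ABL1 lines and 151, 142, 142 and 132 in the SFPQ-ABL1 lines. The BCR-ABL1 lines formed the lowest block and did not overlap the other 8, which overlapped each other. Cdc20 was 1.43-fold lower than in MSCV (log2 -0.52, SE 0.08, adjusted p = 0.000516) and 1.33-fold higher with SFPQ-ABL1 than with BCR-ABL1 (log2 0.41, SE 0.08, adjusted p = 0.00314).

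The checkpoint genes themselves showed no call in any comparison. Bub1, a checkpoint kinase, was at 91.0, 109, 173 and 165 CPM in the MSCV lines and 128, 173, 184 and 170 in the BCR-ABL1 lines, and its 95% interval for BCR-ABL1 against MSCV ran from -0.14 to 0.71. Bub3, which carries BUB1 to kinetochores, was among the steadiest of the set, at 185 to 199 CPM in MSCV, 171 to 199 in BCR-ABL1 and 183 to 206 in SFPQ-ABL1 lines, with an interval from -0.22 to 0.10 for the same comparison. Log2 fold changes with BCR-ABL1 were 0.10 for Bub1b, which encodes BUBR1, -0.11 for Mad2l1, which encodes MAD2, and 0.03 for the checkpoint kinase gene Ttk. Ube2c, the ubiquitin-conjugating enzyme of the complex, had -0.22 (adjusted p = 0.257), with MSCV lines at 109 to 152 and BCR-ABL1 lines at 93.4 to 141 CPM.

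Centromere and kinetochore genes had the largest share of calls among the roles, with 4 of 6 lower in BCR-ABL1, against 16.3% of all genes. Of these 4, Ndc80 was called in 12 of 21 alternative fits, and counts of the exon table called neither Birc5 nor Ndc80. Cenpa, the histone H3 variant that marks the centromere, was at 175, 196, 227 and 216 CPM in the MSCV lines, 136, 120.2, 129.5 and 126 in the BCR-ABL1 lines and 175, 168, 193 and 178 in the SFPQ-ABL1 lines. No BCR-ABL1 line reached the level of any other line. The fall was 1.59-fold against MSCV (log2 -0.67, SE 0.09, adjusted p = 0.000196), and SFPQ-ABL1 was 1.39-fold above BCR-ABL1 (log2 0.48, SE 0.09, adjusted p = 0.00239). The call of Cenpa between the fusions was lost with counts of the exon table. Against MSCV the SFPQ-ABL1 lines did not pass (log2 -0.19, adjusted p = 0.288).

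Cenpf, a large protein of the kinetochore corona, was at 100.3, 103, 144 and 149 CPM in the MSCV lines, 78.0, 79.3, 76.2 and 84.2 in the BCR-ABL1 lines and 114, 117, 119 and 129 in the SFPQ-ABL1 lines. MSCV lines 3 and 4 were well above lines 1 and 2, yet all 4 stood above the BCR-ABL1 lines. Cenpf was 1.56-fold lower with BCR-ABL1 (log2 -0.64, SE 0.12, adjusted p = 0.00169). SFPQ-ABL1 was 1.51-fold above BCR-ABL1 (log2 0.59, SE 0.12, adjusted p = 0.00398), the largest such difference among the 40 genes.

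Birc5, which encodes survivin of the chromosomal passenger complex, was at 154, 193, 154 and 168 CPM in the MSCV lines, 140.3, 108, 130.0 and 82.6 in the BCR-ABL1 lines and 163, 181, 136 and 139 in the SFPQ-ABL1 lines. The BCR-ABL1 lines lay below the MSCV lines, with line 4 the lowest of all. Its fall was 1.45-fold (log2 -0.54, SE 0.15, adjusted p = 0.0171), and without MSCV line 2 it missed the threshold (adjusted p = 0.0501), as it did with counts of the exon table (adjusted p = 0.605). Ndc80, which encodes the microtubule-binding subunit that names the NDC80 complex, was at 64.1, 67.2, 84.2 and 83.9 CPM in the MSCV lines, 58.9, 61.0, 62.2 and 58.0 in the BCR-ABL1 lines and 61.5, 68.8, 79.4 and 77.4 in the SFPQ-ABL1 lines. BCR-ABL1 lines were again below every MSCV line, by a small margin from MSCV line 1. The fall of Ndc80 (log2 -0.32, SE 0.11, adjusted p = 0.0405) was not called when MSCV line 3 or 4 or any 1 BCR-ABL1 line was left out.

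Nuf2, the partner of NDC80 in the same complex, was at 86.4, 84.6, 102 and 106 CPM in the MSCV lines, 93.7, 86.0, 95.4 and 83.2 in the BCR-ABL1 lines and 112, 109.9, 113 and 112 in the SFPQ-ABL1 lines. The SFPQ-ABL1 lines were the highest of the 12 and differed little among themselves, whereas the other groups overlapped. Nuf2 was 1.25-fold higher with SFPQ-ABL1 than with BCR-ABL1 (log2 0.32, SE 0.09, adjusted p = 0.0182), which without BCR-ABL1 line 4 became an adjusted p of 0.0551. Against MSCV it was not called in spite of the separation (log2 0.24, SE 0.09, adjusted p = 0.173). Cenpe, a kinesin of the kinetochore, had a log2 fold change of -0.11 with BCR-ABL1 (adjusted p = 0.624).

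Of 7 kinesin and spindle genes, Kif2c was called. Kif2c, a kinesin that removes tubulin from microtubule ends at the centromere, was at 49.4, 59.5, 65.5 and 66.3 CPM in the MSCV lines, 45.7, 41.1, 42.2 and 40.3 in the BCR-ABL1 lines and 53.6, 60.6, 56.9 and 53.0 in the SFPQ-ABL1 lines. Every BCR-ABL1 line was below every other line. The fall was 1.42-fold (log2 -0.51, SE 0.10, adjusted p = 0.00181), and SFPQ-ABL1 was 1.32-fold above BCR-ABL1 (log2 0.40, SE 0.10, adjusted p = 0.00925). Both calls of Kif2c were lost with counts of the exon table. The call between the fusions was also lost without BCR-ABL1 line 4 and SFPQ-ABL1 line 2. Kif11, the motor that separates spindle poles, averaged 249 ± 50.4, 254 ± 5.43 and 269 ± 15.3 CPM in MSCV, BCR-ABL1 and SFPQ-ABL1 lines (SD, n = 4). Kif4 (log2 0.03 with BCR-ABL1), Tpx2 (0.17), Nusap1 (-0.24) and Gtse1 (0.28), which act on chromosome arms or spindle microtubules, were not called in any comparison.

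Hmmr, a spindle assembly factor, shows how wide the MSCV lines ran. It was at 128, 105, 204 and 220 CPM in MSCV lines 1 to 4, at 158 to 170.3 in the BCR-ABL1 lines and at 139 to 180 in the SFPQ-ABL1 lines. Both fusion groups lay inside the MSCV range, and the log2 fold change of -0.01 with BCR-ABL1 had a 95% interval from -0.43 to 0.40.

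Among 5 genes of the central spindle and cytokinesis, Kif20a was called. Kif20a, a midzone kinesin, was at 75.8, 66.8, 99.8 and 103 CPM in the MSCV lines, 76.1, 58.8, 63.9 and 61.7 in the BCR-ABL1 lines and 87.3, 91.3, 95.95 and 83.6 in the SFPQ-ABL1 lines. BCR-ABL1 line 1 overlapped MSCV lines 1 and 2, whereas all SFPQ-ABL1 lines were above all BCR-ABL1 lines. The fall with BCR-ABL1 (log2 -0.41, SE 0.13, adjusted p = 0.0337) was lost on leaving out 1 of MSCV lines 3 and 4 or of BCR-ABL1 lines 2, 3 and 4. SFPQ-ABL1 was 1.38-fold above BCR-ABL1 (log2 0.46, SE 0.13, adjusted p = 0.0232), which was lost on leaving out 1 of BCR-ABL1 lines 2, 3 and 4 or SFPQ-ABL1 line 3.

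The other cytokinesis genes did not follow Kif20a. With BCR-ABL1 the log2 fold change was -0.08 for Kif23, a motor of the centralspindlin complex, 0.10 for Prc1, which bundles midzone microtubules, 0.18 for the contractile ring gene Anln, and 0.28 for Ect2, the exchange factor that activates RhoA (adjusted p from 0.178 to 0.806). Ect2 was at 162, 214, 161 and 183 CPM in the BCR-ABL1 lines and 133, 157, 139 and 150 in the SFPQ-ABL1 lines. Those groups did not overlap, but the difference missed the threshold (log2 -0.32, SE 0.15, adjusted p = 0.143).

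Top2a, the proliferation marker gene Mki67 and Foxm1, which encodes a transcription factor of the G2 genes, were not called in any comparison. Mki67 was at 643, 683, 807 and 834 CPM in the MSCV lines, 847, 788, 770 and 898 in the BCR-ABL1 lines and 665, 673, 709 and 756 in the SFPQ-ABL1 lines. The fusion groups did not overlap, with BCR-ABL1 above, at an adjusted p of 0.0991 (log2 -0.24 for SFPQ-ABL1 against BCR-ABL1). Foxm1 averaged 119 ± 11.4, 109 ± 9.6 and 112 ± 9.89 CPM in MSCV, BCR-ABL1 and SFPQ-ABL1 lines (SD, n = 4). Its 95% interval with BCR-ABL1 ran from -0.33 to 0.09 on the log2 scale.

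**Figure D3:**
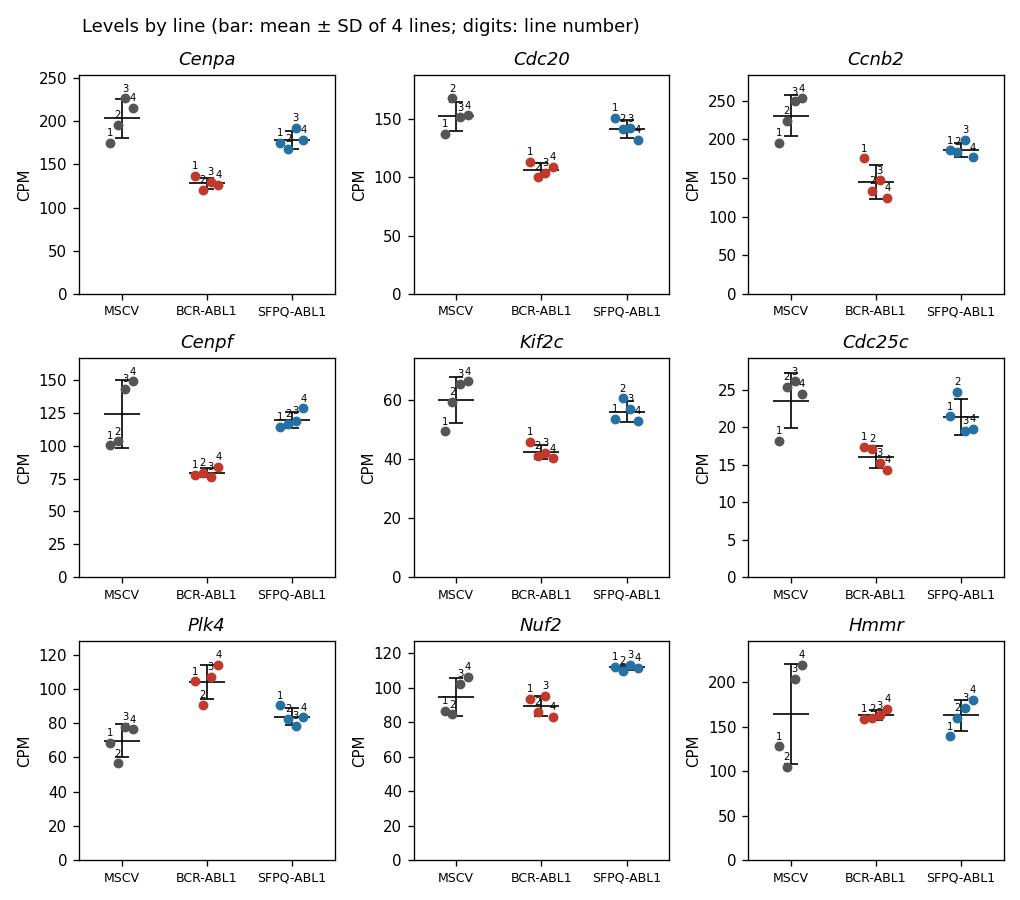
CPM (y axis, from 0) of 9 genes in each line (points, with the line number) by group (x axis), with bars for the mean ± SD of 4 lines. For Cenpa, Cdc20, Ccnb2, Cenpf, Kif2c and Cdc25c all BCR-ABL1 points lie below all others, Plk4 is reversed, Nuf2 is highest in SFPQ-ABL1, and for Hmmr the MSCV points span both other groups.

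Of the 11 members that fell with BCR-ABL1, 8 did so with no overlap between the 4 lines of each group (20.0% of the members, against 16% of all genes), and Plk4 rose without overlap (2.5%, against 15.7%). Kif20a, Plk1 and Cdc25b overlapped. The number of members that fell was 7 when MSCV line 3 or 4, or line 2 or 4 of BCR-ABL1, was left out. That was 17.5% of the members, against 13.2% to 13.8% of all genes in those fits. The calls of Ccnb2, Cdc25c, Cdc20, Cenpa and Cenpf, and of Plk4 upward, held in all 21 alternative fits. Kif2c was called in 20 of them, Birc5 in 19, Kif20a in 14, Cdc25b and Ndc80 in 12 each and Plk1 in 11.

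Between SFPQ-ABL1 and MSCV no member was called, whereas 1.79% of all genes were (0.814% higher, 0.977% lower). At an unadjusted p under 0.05, 2 members were higher and 1 lower, while 8.8% of all genes were higher, 9.77% lower and 18.6% either, and DESeq2 and limma-voom also called 0 members. The smallest adjusted p was that of Nuf2 (0.173). After it came Ccnb2 (log2 -0.31, SE 0.11, adjusted p = 0.174), Plk4 (log2 0.26, SE 0.11, adjusted p = 0.213) and Cenpa (log2 -0.19, SE 0.09, adjusted p = 0.288). The lines of Nuf2 and Plk4 did not overlap, with SFPQ-ABL1 higher (5.0% of members, against 5% of all genes), and no member was lower without overlap (against 6.24%). The 95% intervals of the 40 genes lay between -0.62 (Kif23) and 0.55 (Anln). The median log2 fold change was -0.05, with 15 positive and 25 negative, and its sign did not hold. It was 0.0057 (22 positive, 18 negative) with no normalization factors, where the median of all genes moved from -0.0019 to 0.052. Without MSCV line 4 it was 0.018 and without MSCV line 3 -0.00036 (20 positive and 20 negative in each), and without MSCV line 1 or 2 it was -0.096 or -0.076.

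SFPQ-ABL1 lines were above BCR-ABL1 lines for 9 of the 40 genes and below for Plk4. Over all genes tested, 13.2% were higher, 12.8% lower and 26% changed in either direction, against 22.5%, 2.5% and 25.0% of the members. The 9 were Cenpa, Cdc20, Cenpf, Kif2c, Nuf2, Plk1, Kif20a, Cdc25c and Ccnb2, and all except Nuf2 were also among the 11 that fell with BCR-ABL1 against MSCV. Both comparisons use the same BCR-ABL1 lines, so that those 8 are not independent counts. The lines did not overlap for 11 genes higher with SFPQ-ABL1 (27.5%, against 13.9% of all genes) and 3 lower (7.5%, against 14%). The median log2 fold change was 0.08, and 30 of 40 were positive, against 50.7% of all genes. It was 0.047 without SFPQ-ABL1 line 3, 0.146 with counts of the exon table and 0.147 with no normalization factors, where the median of all genes moved from 0.0058 to 0.073.

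The count between the fusions depended on single BCR-ABL1 lines. The genes higher with SFPQ-ABL1 numbered 5 without BCR-ABL1 line 3 (12.5% of members, against 9.01% of all genes in that fit). Without BCR-ABL1 line 4 they numbered 4 (10.0%, against 10.4%), a share near that of all genes. Without BCR-ABL1 line 4 and SFPQ-ABL1 line 2, the lines that stood apart on the exons of Abl1 and Sfpq, 3 were left (Cdc20, Cenpa and Cenpf; 7.5%, against 11.3%). Without that pair, 7 members fell with BCR-ABL1 against MSCV (17.5%, against 13.7% of all genes) and Plk4 still rose (2.5%, against 13.5%).

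**Figure D4:**
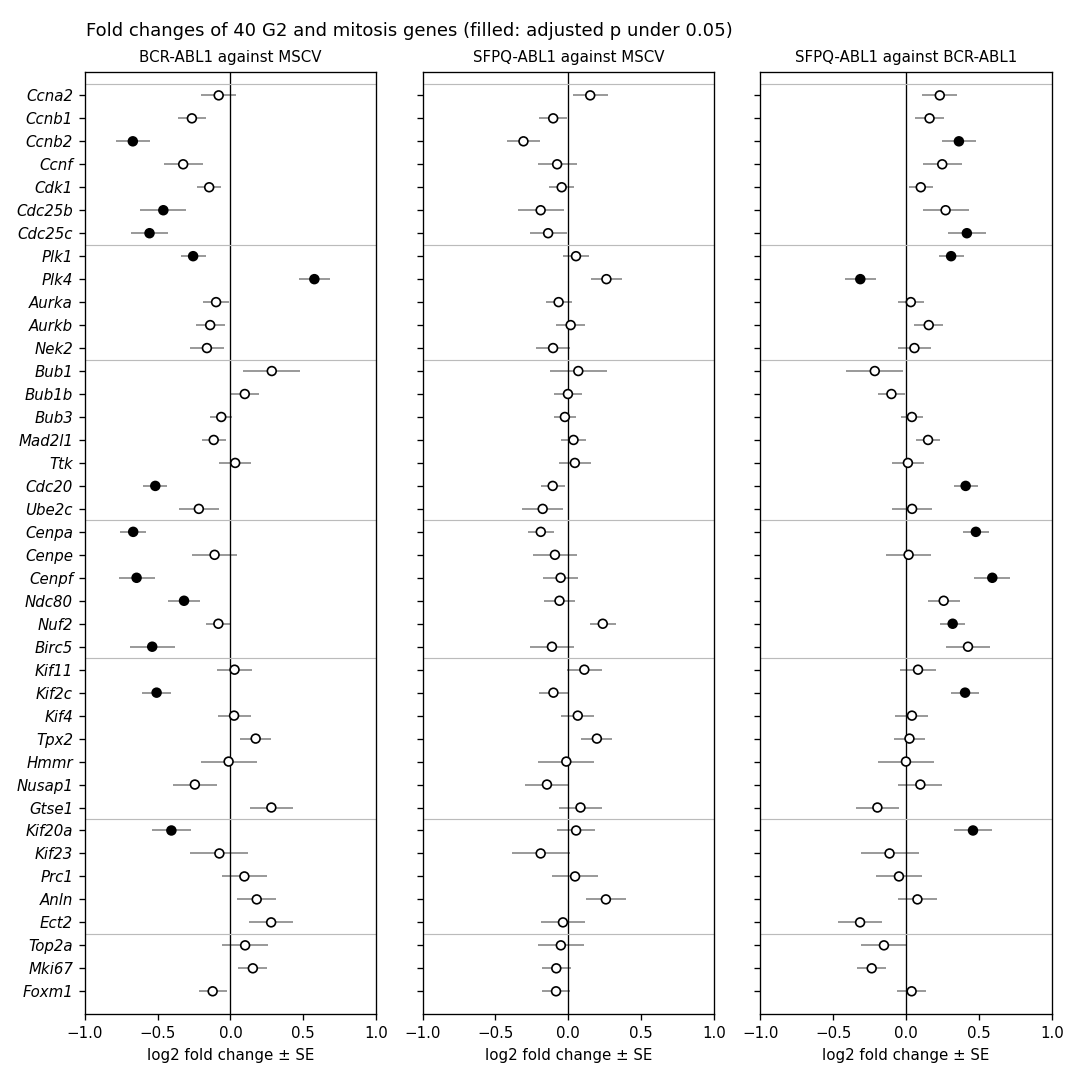
Log2 fold change ± SE (x axis) of each gene (y axis, grouped by role) in 3 comparisons, with filled points for adjusted p under 0.05. Filled points number 12 for BCR-ABL1 against MSCV, 0 for SFPQ-ABL1 against MSCV and 10 for SFPQ-ABL1 against BCR-ABL1.

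The members varied together from line to line within a group. MSCV lines 3 and 4 each had 39 of the 40 genes above the mean of the 12 lines, while MSCV lines 1 and 2 had 5 and 12. Median deviations were -0.13, -0.15, 0.21 and 0.21 on the log2 scale in MSCV lines 1 to 4. In the S phase list of 34 replication genes, the same lines had 0.0104, 0.0033, -0.26 and -0.10, so the lines that were high for mitotic genes were low for replication genes. The labels give no batch or collection date that marks these lines.

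The median coefficient of variation of the members was 14.6% over the MSCV lines, 7.14% over the BCR-ABL1 lines and 6.2% over the SFPQ-ABL1 lines. In MSCV it ran from 3.06% for Bub3 to 35.5% for Kif23, which was at 93.1, 82.2, 170 and 159 CPM in lines 1 to 4. Deviations from the group mean correlated between members with a median Pearson r of 0.58 (quartiles 0.32 and 0.76, 780 gene pairs over 12 libraries), a description of lines that share library and depth. Hmmr (median r 0.77 with the others) and Kif23 (0.77) followed the rest most closely. Birc5 (-0.02) and Cdc20 (0.04) did so least, and both were among the genes that fell with BCR-ABL1.

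**Figure D5:**
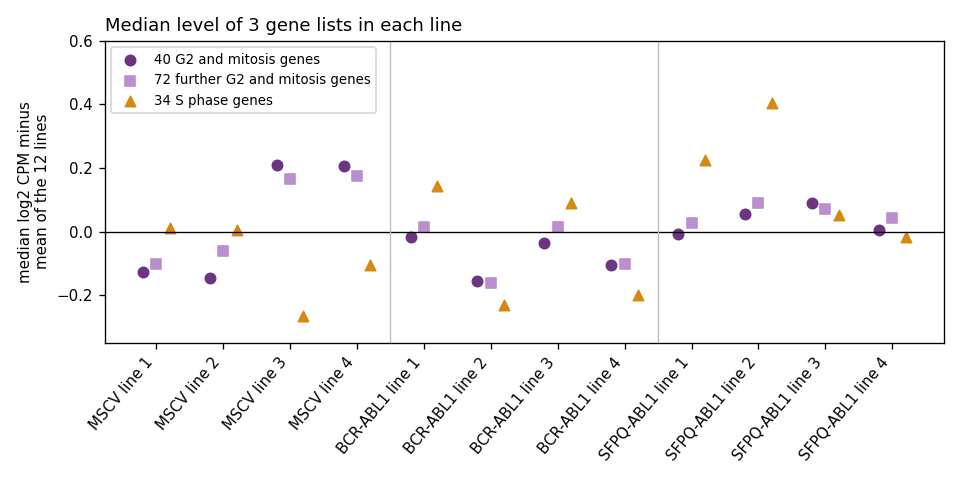
Median over each gene list of log2 CPM minus the mean of the 12 lines (y axis), by line (x axis), for the 40 G2 and mitosis genes (circles), 72 further genes of the same phases (squares) and 34 S phase genes (triangles). Circles and squares move together and are highest in MSCV lines 3 and 4, at 0.21 and 0.21 for the 40 genes, where the triangles are below 0.

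Further genes of the same phases were read from lists of other mitotic genes. Of 72, 9 fell (12.5%, against 16.3% of all genes) and 4 rose (5.56%, against 15.8%) with BCR-ABL1 against MSCV, and the median log2 fold change was -0.11. Both shares were below those of all genes. Fam83d, a spindle protein, averaged 22.2 ± 3.26 CPM in MSCV and 13.1 ± 1.41 in BCR-ABL1 lines (SD, n = 4; log2 -0.76, adjusted p = 0.000414). Dlgap5, which stabilises kinetochore microtubules, fell from 123 ± 24.9 to 76.1 ± 3.88 CPM (log2 -0.69, adjusted p = 0.00115). Cdca3 (log2 -0.63) and the kinesin gene Kif22 (log2 -0.51) fell as well. None of the 72 was called between SFPQ-ABL1 and MSCV, where 4 were higher and 2 lower at an unadjusted p under 0.05. Between the fusions 7 were higher with SFPQ-ABL1 (9.72%, against 13.2% of all genes) and 2 lower (2.78%, against 12.8%), led by Fam83d (log2 0.66, adjusted p = 0.00157) and Troap (log2 0.66, adjusted p = 0.00215).

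Subunits and regulators of the anaphase-promoting complex moved both ways with BCR-ABL1. Of 17, 5 were lower (29.4%, against 16.3% of all genes) and 4 higher (23.5%, against 15.8%). Anapc13 fell from 51.4 ± 5.3 to 28.98 ± 3.67 CPM (log2 -0.83, adjusted p = 0.000309). Anapc2, which encodes the cullin subunit, fell from 124 ± 10.3 to 81.6 ± 8.13 CPM (log2 -0.60, adjusted p = 0.000556). Cdc26 (log2 -0.51) and Fzr1 (log2 -0.48), which encodes the activator CDH1, fell too. Of 17 condensin and cohesin genes, 5 rose (29.4%, against 15.8% of all genes) and 2 fell (11.8%, against 16.3%). The cohesin regulators Pds5a (log2 0.68, adjusted p = 9.1e-05) and Wapl (log2 0.41, adjusted p = 0.0023) rose, and the condensin subunit gene Smc4 fell (log2 -0.47, adjusted p = 0.00798).

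Factors known to bind promoters of this kind were read as a further list. The list held 22 MuvB, DREAM, B-MYB, E2F and NF-Y genes. With BCR-ABL1, 10 rose (45.5%, against 15.8% of all genes) and 4 fell (18.2%, against 16.3%). Their median log2 fold change was 0.32. Lin37, a MuvB subunit gene, fell from 15.9 ± 1.73 to 9.42 ± 0.891 CPM (log2 -0.75, adjusted p = 0.000324). Nfyb, a subunit gene of NF-Y, rose from 51.4 ± 4.68 to 75.4 ± 4.22 CPM (log2 0.55, adjusted p = 0.000639), E2f4 by 0.63 and E2f3 by 0.50 on the log2 scale. Between the fusions, 2 of the 22 were higher with SFPQ-ABL1 (9.09%, against 13.2% of all genes). The 5 that were lower (22.7%, against 12.8%) were led by Rb1 (log2 -0.93, adjusted p = 0.00136).

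The 34 S phase genes served as a neighbouring phase. With BCR-ABL1, 5 rose (14.7%, against 15.8% of all genes) and 3 fell (8.82%, against 16.3%) against MSCV (median log2 fold change 0.02). The ribonucleotide reductase gene Rrm2 led them and went from 138 ± 16.4 to 297 ± 43.1 CPM (log2 1.11, adjusted p = 5.5e-05). Against MSCV the SFPQ-ABL1 lines had a positive log2 fold change for 34 of 34 (median 0.23), against 49.7% of all genes, but none was called. The lines overlapped. Their median deviations from the mean of the 12 lines were 0.22, 0.40, 0.05 and -0.02 in SFPQ-ABL1 lines 1 to 4. In MSCV lines 1 to 4 they were 0.0104, 0.0033, -0.26 and -0.10, so SFPQ-ABL1 line 4 was below MSCV lines 1 and 2. Between the fusions 11 S phase genes were higher with SFPQ-ABL1 (32.4%, against 13.2% of all genes), among them the helicase gene Mcm6 (log2 0.63, adjusted p = 0.00137). Only Rrm2 was lower (2.94%, against 12.8%), at log2 -1.01 (adjusted p = 0.000208). No test compared the lists.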

How the data were processed

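Total RNA from 12 Ba/F3 lines was sequenced after extraction with the PureLink RNA Mini Kit, per the labels' protocols. The files the authors deposited hold raw, unnormalized counts, 1 table by Ensembl gene and 1 by Ensembl exon. Subread, featureCounts and mm10 are named in the submitters' processing notes. No source used here gives versions, strand use or the handling of multiply matched reads, so overlapping and antisense genes may share counts. The exon table held 18.0% of the gene total and served as an alternative only. Counts are PCR reads without molecular identifiers.

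Gene counts were filtered with filterByExpr, scaled by TMM and tested with edgeR 4.0.16 (limma 3.58.1, R 4.3.3) by the two-sided quasi-likelihood test, with 1 model for all 12 libraries and no covariate but group, and adjusted over the 17197 genes tested by Benjamini-Hochberg. Every adjusted p is from this test unless another tool is named. CPM are TMM-scaled, except those of exon 9, which divide exon counts by the unscaled gene total, and levels per kb use the union of exons in GENCODE M21, which held 55230 of the 55471 identifiers. Intervals are 95%. The 18 pairs of lines within groups differed by 33.1 to 182 chi-square per degree of freedom. The script was tested on simulated counts, with known changes in genes picked from all levels. It called 16.3% of 1.5-fold changes for BCR-ABL1 against MSCV and 29.3% for SFPQ-ABL1 against MSCV. For 2-fold changes it called 48.5% and 57.1%. Of the calls, 7.25% and 5.56% were false. For each fold 98 or 99 changed genes were tested, far fewer than the 5522 genes called for BCR-ABL1 against MSCV. With so few changed genes the Benjamini-Hochberg cutoff is stricter than in that comparison, so the rates do not measure recovery of the members. Genes that were not called are still not shown to be unchanged.

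Per-line values are given for called members, with the 4 smallest p where fewer than 4 were called; further lists name up to 4 genes by p in a comparison. Ccnb1, Bub1, Bub3, Hmmr, Kif11, Kif23, Ect2, Mki67 and Foxm1 were given values outside this rule, after they were seen. Members and lists were chosen with earlier results of these data known. Alternatives were other factors, no filter, DESeq2 1.42.0, limma-voom, 8 libraries, a replicate block, the exon table and left-out lines.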

Additional observations from a re-analysis of the deposited data

Results flagged for a closer look

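Of 120 sets of 4 lines (40 genes in 3 groups), 2 held a line far from the others of its group, where chance alone gives about 1 in 20. Bub3 was at 205.5 CPM in SFPQ-ABL1 line 1 and at 183.5 to 186.1 in the other SFPQ-ABL1 lines. Mad2l1 was at 122.9 CPM in BCR-ABL1 line 2 and at 128.5 to 129.7 in the other BCR-ABL1 lines.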

How the results depend on the processing

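Of 546 values of named members under an alternative, 467 kept their side of the threshold, 79 lost the call and 0 of the called values changed direction. The members' median between SFPQ-ABL1 and MSCV did change sign, from -0.05 to 0.0057 with no normalization factors and 0.018 without MSCV line 4. With counts of the exon table, 6 members fell with BCR-ABL1 against MSCV (15%, against 10.2% of all genes, with 3496 genes called). With SFPQ-ABL1 against BCR-ABL1, 5 were higher (12.5%, against 7.26%) and 0 lower (against 6.81%, with 2417 genes called). Ccnb2, Cenpa, Kif2c, Plk1 and Plk4 lost their call between the fusions there. In the same setting 142 genes were called between SFPQ-ABL1 and MSCV. Without BCR-ABL1 line 4 and SFPQ-ABL1 line 2, 7 members fell with BCR-ABL1 (17.5%, against 13.7% of all genes). Between the fusions 3 were then higher (7.5%, against 11.3%) and 0 lower (against 10.9%), and 498 genes were called between SFPQ-ABL1 and MSCV. That last count, 308 in the report, was 1131 with DESeq2, 110 with 8 libraries and 726 with the replicate block. The call of Plk4 between the fusions was lost with no normalization factors, no filter and limma-voom (0 lower).

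Leaving out each line in turn gave 7 to 12 members lower and 1 to 1 higher with BCR-ABL1 (4474 to 5645 genes), 0 to 0 in either direction between SFPQ-ABL1 and MSCV (33 to 467 genes, 168 or fewer without any 1 of MSCV lines 2 to 4, BCR-ABL1 line 3 or SFPQ-ABL1 lines 1, 3 and 4, and 467 without SFPQ-ABL1 line 2), and 4 to 10 higher and 0 to 1 lower between the fusions (3161 to 5026 genes). With no normalization factors, 64.8% of the calls between SFPQ-ABL1 and MSCV were higher, against 45.5%, and 61.9% against 50.7% between the fusions.

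Same-numbered lines correlated with r from -0.00632 to 0.385 over 12 pairs, of which 7 exceeded 0.1, and 9 of 12 libraries correlated best with their own number. The last is a hint from the data that the numbers may mark pairs; since not every pair exceeded 0.1, they were not taken as such. With the replicate block, 11 members fell with BCR-ABL1 (27.5%, against 18.3% of all genes). Ccnb1 was added and Plk1 lost (adjusted p = 0.0508 with edgeR). Between the fusions 11 were higher (27.5%, against 15.4%), with Birc5 and Ndc80 added, and 1 lower (2.5%, against 15.6%). No member was called between SFPQ-ABL1 and MSCV.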
